A study of Mus musculus with 6 samples.

Results

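The genes described here drive S phase and mitosis, the replication of DNA and the separation of its copies, and were chosen by name. There are 50 of them, of 16593 genes named in the array's annotation, and they fall into 20 genes of S phase, 25 of mitosis and 5 that control passage through G1. All 5 of the G1 genes, 19 of the S phase genes and 22 of the mitotic genes had at least 1 probe, 80 probes in all. Of the 46 genes with a probe, 39 had a signal above background on at least 3 of the 6 arrays and were tested, with 62 of the 80 probes.

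The samples were hindlimb buds of mouse embryos at E12.5, of the strain labelled SV129, from matings of Pitx1+/- mice. The wild-type group (3 samples) was labelled PITX1+/+ and the knockout group (3 samples) PITX1-/-, and the labels list no treatment for either. The labels name neither the deleted part of the gene nor the number of embryos in a sample, so p-values refer to the spread between samples. Pitx1 encodes a homeodomain transcription factor of the hindlimb. Its probe read 154.0, 125, and 140.2 units in wild-type replicates 1, 2 and 3 and 78.3, 75.2 and 76.1 units in the knockouts, so every knockout lay below every wild type, and Pitx1 fell by 0.51 ± 0.09 on the log2 scale (limma adjusted p = 0.038). Where its probe lies relative to the deletion was not checked. The offset of 50 units added before the logarithm shrinks the Pitx1 value, and the call was lost without wild-type replicate 3. All 13 genes of the limb mesenchyme list with a probe were above background on at least 3 arrays. So were all 11 ectoderm and all 11 endothelial genes with a probe, so these lists do not tell which tissue was sampled. Prrx1, which marks limb mesenchyme, averaged 1108 units in wild type. Values are processed intensities in arbitrary units on a linear scale, and levels of different probes are not comparable with each other. As deposited, the 6 arrays had nearly 1 distribution (array medians of 17.8 to 17.9 units), so a shift shared by all genes could not be seen. On each array 13527 to 13553 probes exceeded the background threshold.

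Proliferating cells replicate their DNA once per cycle. Origins are licensed in G1 by loading of the Mcm helicase, with Cdc6 and Cdt1, and fire in S phase once Cdc45 and the GINS complex join it. Cyclin D and cyclin E with their kinases release E2F factors from the retinoblastoma proteins, and E2F sites drive the S phase genes. The mitotic genes are transcribed later, in G2 and M, largely through CCAAT boxes and the cell cycle genes homology region (CHR) of their promoters, which bind NF-Y and the MuvB complexes. In the limb bud at this stage, undifferentiated mesenchyme and ectoderm divide while differentiating muscle cells leave the cycle.

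Promoter letters are given first for both classes. RefSeq promoter windows (GRCm38.p6, 250 bases before to 50 after the start) were matched by symbol for 41 of the 50 genes. The motifs searched on both strands were CCAAT, the CHR letters TTTGAA or TTCGAA, and the E2F-type letters TTTGGCGC, TTTCCCGC, TTTGGCGG or TTTCCCGG. A CCAAT box together with a CHR was present in 16 of 21 mitotic promoters (76.2%), in 3 of 17 S phase promoters (17.6%) and in 8.61% of all 27025 genes of the table. An E2F-type motif was present in 6 of the 17 S phase promoters (35.3%), in 1 of the 21 mitotic promoters (4.76%) and in 3.79% of all genes. These matches are a description of letters in a window and not evidence of binding. The windows of 6 genes are shown as examples, chosen by their expression results below. Cdk1, Kif11 and Top2a had the smallest p-values among the mitotic genes with a window, Mcm6 had the smallest of the S phase genes by its brightest probe, and Rrm1 and Rrm2 encode the subunits of 1 enzyme and differed in direction. Each is written 5′ to 3′ on the strand of the gene, with every match of a searched motif in capitals, and no matches overlapped in these windows.
Cdk1, chr10:69352863-69353162, minus strand: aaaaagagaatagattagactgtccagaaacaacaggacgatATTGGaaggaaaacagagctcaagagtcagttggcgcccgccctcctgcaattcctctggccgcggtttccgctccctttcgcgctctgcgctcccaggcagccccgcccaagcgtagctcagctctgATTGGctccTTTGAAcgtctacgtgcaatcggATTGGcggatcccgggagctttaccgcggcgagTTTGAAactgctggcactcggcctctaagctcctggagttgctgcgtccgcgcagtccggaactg
Kif11, chr19:37376132-37376431, plus strand: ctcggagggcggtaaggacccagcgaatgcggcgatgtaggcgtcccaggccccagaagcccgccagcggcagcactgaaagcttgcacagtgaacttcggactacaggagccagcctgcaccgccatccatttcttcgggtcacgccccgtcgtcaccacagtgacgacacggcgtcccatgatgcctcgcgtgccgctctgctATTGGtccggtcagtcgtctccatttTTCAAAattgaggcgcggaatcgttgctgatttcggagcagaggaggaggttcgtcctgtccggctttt
Top2a, chr11:99024140-99024439, minus strand: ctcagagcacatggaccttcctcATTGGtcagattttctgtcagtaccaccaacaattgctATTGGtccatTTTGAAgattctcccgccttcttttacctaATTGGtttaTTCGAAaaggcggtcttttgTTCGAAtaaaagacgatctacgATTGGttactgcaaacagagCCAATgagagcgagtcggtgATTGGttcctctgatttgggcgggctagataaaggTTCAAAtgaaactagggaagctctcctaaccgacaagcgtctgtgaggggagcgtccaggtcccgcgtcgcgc
Mcm6, chr1:128359656-128359955, minus strand: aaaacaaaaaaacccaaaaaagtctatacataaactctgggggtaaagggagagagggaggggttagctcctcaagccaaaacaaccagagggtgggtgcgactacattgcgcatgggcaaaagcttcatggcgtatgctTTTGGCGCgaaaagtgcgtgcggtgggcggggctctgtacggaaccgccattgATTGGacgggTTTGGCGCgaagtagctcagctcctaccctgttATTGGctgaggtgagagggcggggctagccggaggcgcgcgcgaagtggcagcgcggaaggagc
Rrm1, chr7:102441445-102441744, plus strand: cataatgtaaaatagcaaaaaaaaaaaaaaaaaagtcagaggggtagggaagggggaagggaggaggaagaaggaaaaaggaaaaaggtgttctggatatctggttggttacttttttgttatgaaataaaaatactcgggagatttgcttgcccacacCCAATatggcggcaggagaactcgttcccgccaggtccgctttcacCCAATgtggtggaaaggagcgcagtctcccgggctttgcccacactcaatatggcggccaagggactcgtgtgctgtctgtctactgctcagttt
Rrm2, chr12:24708004-24708303, plus strand: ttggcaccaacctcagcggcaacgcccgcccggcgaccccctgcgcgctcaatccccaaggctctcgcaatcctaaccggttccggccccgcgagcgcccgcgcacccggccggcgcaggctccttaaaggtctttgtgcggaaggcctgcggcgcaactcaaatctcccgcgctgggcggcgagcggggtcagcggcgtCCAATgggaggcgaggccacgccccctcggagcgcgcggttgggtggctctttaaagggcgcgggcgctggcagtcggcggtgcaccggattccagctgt

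In these windows the CCAAT box nearest the start began 48 bases before the start in Cdk1, 45 in Kif11 and 58 in Top2a, and the nearest CHR began 15, 19 and 23 bases before it. The Mcm6 window held 2 copies of the E2F-type motif TTTGGCGC, whereas the windows of Rrm1 and Rrm2 held CCAAT boxes and neither of the other motifs.

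The design holds 1 comparison, knockout against wild type. None of the 39 cell cycle genes passed. At an adjusted p of 0.05 (limma, Benjamini-Hochberg over all 13715 probes tested), 0 of 19 S phase genes, 0 of 15 mitotic genes and 0 of 5 G1 genes rose, and as many fell. The share of all probes that passed was 0.219%. Counts and rankings of genes use the brightest probe of each. The smallest adjusted p among the 39 genes was 0.51. At an unadjusted p under 0.05 there were 7 genes, namely 5 of 19 S phase genes (26.3%), 2 of 15 mitotic genes (13.3%) and 0 of 5 G1 genes, against 8.04% of all probes. Over all named genes, by the brightest probe of each, the share was 8.51%. The S phase count was 0 without either of wild-type replicates 1 and 2, 2 without wild-type replicate 3, 3, 2 and 1 without knockout replicates 1, 2 and 3, and the mitotic count was 0 without wild-type replicate 3 or knockout replicate 3. The genotypes did not overlap for 8 S phase genes, 5 mitotic genes and 0 G1 genes. This was a share of 33.3% of the 39, against 13.2% of all probes and 13.8% of all named genes. Of those 13 genes 7 were higher and 6 lower in knockout.

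The differences were small, and the intervals around them narrow. Log2 differences (fold changes as knockout minus wild type, given with their standard error) ran from -0.20 to 0.29 over the 39 genes. The 95% confidence interval lay within 0.5 of 0 on the log2 scale, a factor of 1.41, for 36 of the 39 genes (92.3%), and within 1 of 0 for all 39. Among all 9535 named genes tested, 93.4% had an interval within 0.5. The widest bounds among the cell cycle genes were -0.40 (Ccnd2) and 0.52 (Cdk1). An offset of 50 units was added before the logarithm, which understates the change of dim probes, but 31 of the 39 genes averaged at least 500 units, and 28 of those 31 had an interval within 0.5. The number of arrays, 3 per genotype, limits this precision.

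**Figure D1:**
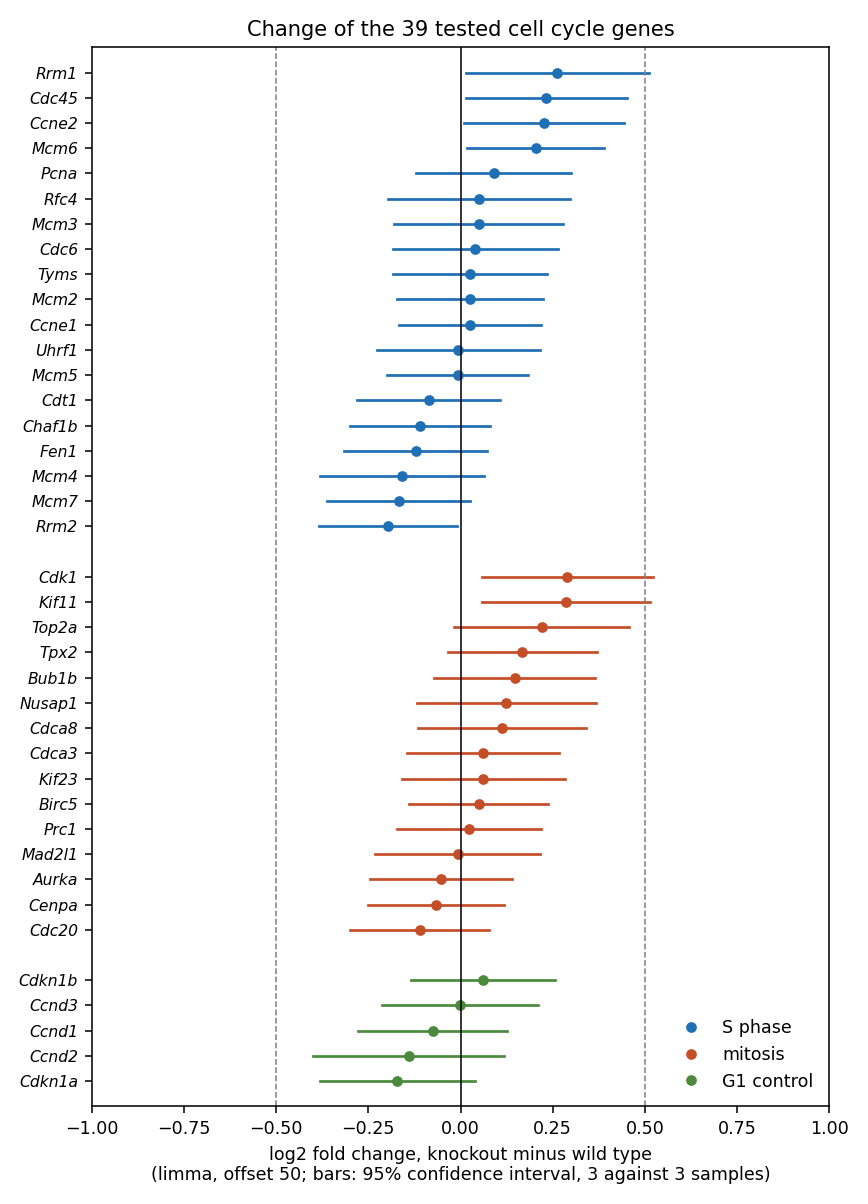
Log2 fold change (x axis, knockout minus wild type) of the 39 tested cell cycle genes with 95% confidence intervals from limma, 3 samples per genotype, S phase in blue, mitosis in orange and G1 control in green, and dashed lines at 0.5 either side of 0. All points lie between -0.20 and 0.29, and 36 of the 39 intervals stay inside the dashed lines.

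The replicative helicase, the hexamer Mcm2 to Mcm7 that unwinds DNA at the fork, showed no common direction, with 3 subunits above 0 and 3 below. By the brightest probe of each gene, Mcm6 had the smallest p among the S phase genes, and the second probe of Rrm2, below, had a smaller one. Its brightest probe read 1942, 1944 and 1944 units in wild-type replicates 1, 2 and 3 and 2162, 2278 and 2308 units in the knockouts. The 3 knockouts lay above the 3 wild types, whose SD was 0.97 units, and the log2 difference was 0.20 ± 0.09 (standard error; unadjusted p = 0.034, limma adjusted p = 0.59). A second Mcm6 probe gave 0.06 with overlapping genotypes (adjusted p = 0.88). Mcm7 read 949, 919 and 1038 units in wild type and 843, 883 and 833 units in knockout. Here the knockouts lay below the wild types, with a log2 difference of -0.17 ± 0.09 (adjusted p = 0.66). Mcm4 gave -0.16 ± 0.10 on its brightest probe and -0.04 on each of its other 2, and the first value was -0.072 without knockout replicate 3 and -0.096 without wild-type replicate 3. Mcm2 read 2271, 2426 and 2453 units in wild type and 2473, 2252 and 2561 units in knockout. The genotypes overlapped fully for Mcm2, and its log2 fold change of 0.03 had an interval of -0.17 to 0.22. Mcm3 gave 0.05 and Mcm5 gave -0.01.

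Among the factors that load or fire the helicase, Cdc45, the partner that activates it, read 1212, 1262 and 1251 units in wild type and 1322, 1417 and 1697 units in knockout. All 3 knockouts lay above the wild types, replicate 3 the farthest, and the log2 difference was 0.23 ± 0.10 (standard error; limma adjusted p = 0.61). Without knockout replicate 3 it was 0.13. Cdc6, an origin licensing factor, gave 0.04 and, on a dim second probe, 0.18, and Cdt1, its partner, gave -0.09. Both overlapped between the genotypes. Gins2, a GINS subunit, had no probe named for it in the annotation used here. The 2 cyclins E, which with their kinase start S phase, gave 0.03 (Ccne1) and 0.23 ± 0.10 (Ccne2, adjusted p = 0.61). Without wild-type replicate 1 the Ccne2 value was 0.14. Ccne2 read 116, 139 and 166 units in wild type and 168, 179 and 178 units in knockout, so its genotypes were separated by only the gap between 166 and 168 units.

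The subunits of ribonucleotide reductase, which makes the deoxynucleotides for replication, pointed in opposite directions. Rrm1, the large subunit, read 2440.3, 2470.0 and 2411 units in wild type and 2563, 2770.2 and 3585 units in knockout. The knockouts lay above the wild types, with replicate 3 far above the other two, and the log2 difference was 0.26 ± 0.12 (standard error; unadjusted p = 0.039, limma adjusted p = 0.61). Without knockout replicate 3 it was 0.12. Rrm2, the small subunit, whose level follows S phase, read 976, 1029 and 944 units in wild type and 843, 836 and 864 units in knockout. Here the knockouts lay below the wild types, with a log2 difference of -0.20 ± 0.09 (adjusted p = 0.61). Its other probe gave -0.27 ± 0.10 (adjusted p = 0.54), again with no overlap. The difference between the subunits was not tested. Tyms, thymidylate synthase, gave 0.03 to 0.11 on its 4 tested probes, and its genotypes overlapped on each.

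The clamp, its loader and the flap nuclease lay between -0.12 and 0.09. Fen1, which trims Okazaki fragments, read 3808, 3755 and 3654 units in wild type and 3196, 3643 and 3462 units in knockout (log2 difference -0.12 ± 0.09, limma adjusted p = 0.75), without overlap. Pcna, the sliding clamp, was read by a single dim probe, at 18.0, 3.08 and 3.60 units in wild type and 14.5, 14.5 and 10.1 units in knockout. Against a background threshold of 14.3 units, this probe was above background on 3 arrays and says little about Pcna (log2 fold change 0.09 ± 0.10). Rfc4, a clamp loader subunit, gave 0.05 and, on a dim second probe, 0.07. The genes of chromatin copying gave -0.11 without overlap (Chaf1b, a subunit of the chromatin assembly factor) and -0.01 (Uhrf1, which couples replication to DNA methylation).

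**Figure D2:**
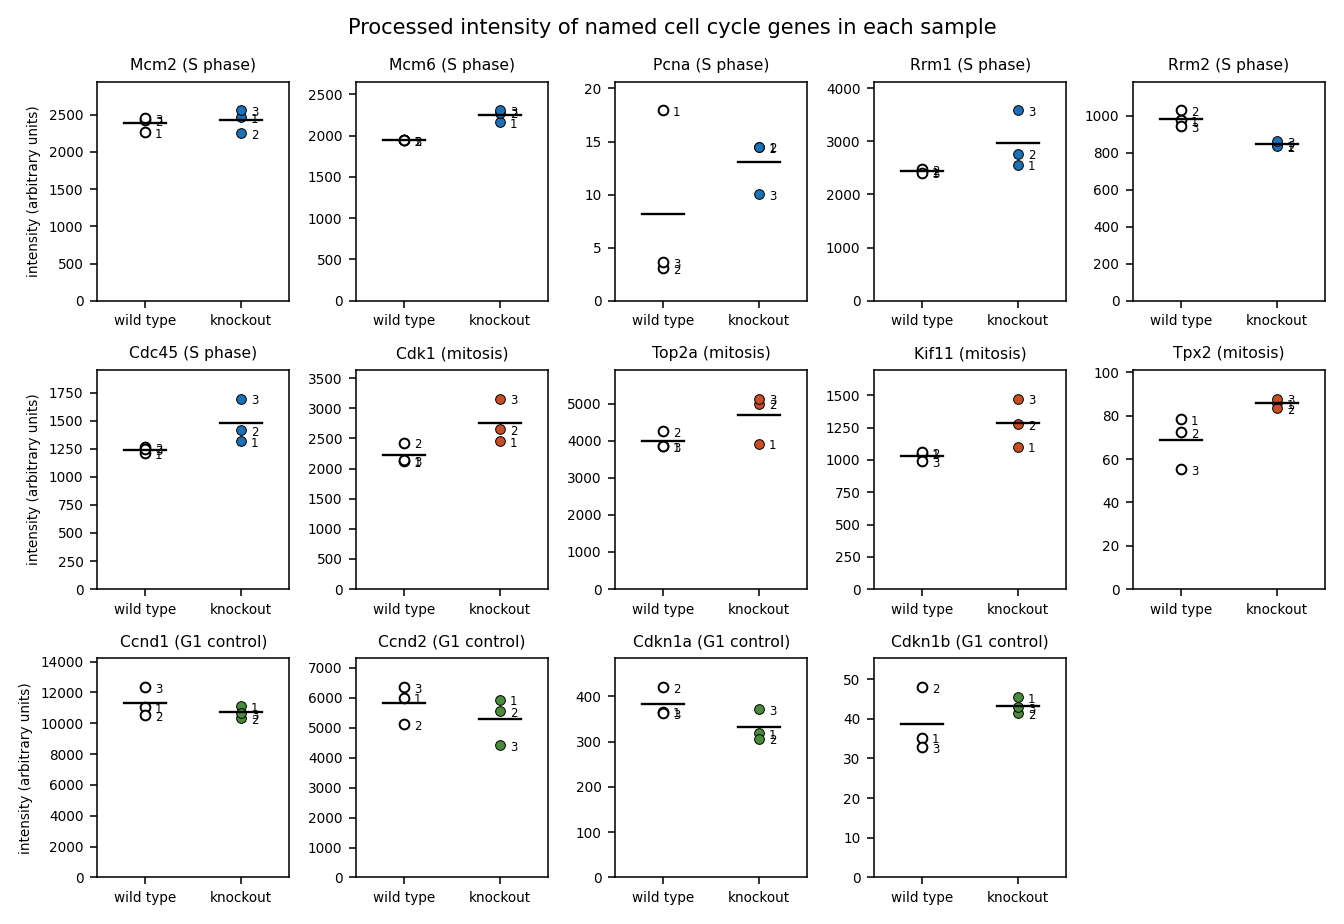
Processed intensity (y axis, arbitrary units, linear from 0) of 14 named cell cycle genes in each sample, wild type as open and knockout as filled points, with replicate numbers beside the points and the group mean as a bar. Mcm6, Rrm1, Cdc45, Cdk1, Kif11 and Tpx2 are higher and Rrm2 is lower in all 3 knockouts than in all 3 wild types, while the other 7 genes overlap.

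In mitosis the largest differences belonged to Cdk1 and Kif11, and neither passed. Cdk1, the kinase that drives entry into mitosis, read 2130.1, 2432 and 2136 units in wild type and 2450.5, 2652 and 3161 units in knockout. The lowest knockout lay just above the highest wild type, and the log2 difference was 0.29 ± 0.11 (standard error; unadjusted p = 0.018, limma adjusted p = 0.51). A dim second Cdk1 probe gave 0.12 with overlap (adjusted p = 0.77). Kif11, the kinesin that pushes the spindle poles apart, read 1049, 1059 and 994 units in wild type and 1103, 1275 and 1474 units in knockout. Its knockouts lay above the wild types, with replicate 1 the closest to them, and the log2 difference was 0.29 ± 0.11 (unadjusted p = 0.018, adjusted p = 0.51). Leaving out 1 array at a time, the 2 genes stayed between 0.19 and 0.38, with the lowest value for each without knockout replicate 3.

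Top2a, the topoisomerase that untangles replicated chromosomes, read 3854, 4261 and 3854 units in wild type and 3921, 5000.1 and 5134 units in knockout. Knockout replicate 1 lay among the wild types and the other two lay above (log2 difference 0.22 ± 0.11, limma adjusted p = 0.65, and 0.34 without knockout replicate 1). Tpx2, which activates Aurora A on the spindle, read 78.4, 72.3 and 55.3 units in wild type and 85.6, 83.4 and 87.8 units in knockout, without overlap (0.17 ± 0.09, adjusted p = 0.67, and 0.098 without wild-type replicate 3). The other spindle and cytokinesis genes gave 0.12 (Nusap1, a microtubule bundler, on both probes), 0.06 (Kif23, a kinesin of the midbody) and 0.02 (Prc1, an antiparallel bundler of the central spindle). The Nusap1 value was 0.0044 without knockout replicate 2, 0.065 without wild-type replicate 3 and 0.20 without knockout replicate 3. All 5 tested genes of that group were above 0 by their brightest probe, though Kif23 and Prc1 changed sign with 1 array left out. Aurka, the kinase of spindle poles, gave -0.05.

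The spindle checkpoint and the anaphase genes divided evenly, with 2 of 4 tested genes above 0. Bub1b, which encodes the checkpoint protein BubR1, gave 0.15 ± 0.10 (0.050 without knockout replicate 3) and Mad2l1, the checkpoint inhibitor of the anaphase-promoting complex, gave -0.01. Cdc20, the activator of that complex, had 4 tested probes that disagreed in sign. Its brightest probe read 6621, 6306 and 6739.8 units in wild type and 6267, 6018 and 5909.6 units in knockout, all knockouts below all wild types (log2 difference -0.11 ± 0.09, limma adjusted p = 0.76). The other 3 probes gave 0.08, 0.01 and -0.01 with overlap. Cdca3, which triggers degradation of the Wee1 kinase, gave 0.06 and, on a second probe, 0.21. Among the genes of chromosomes and centromeres, Birc5 and Cdca8, both of the chromosomal passenger complex, gave 0.05 and 0.11 (the other Birc5 probes 0.03 and 0.01), and Cenpa, the centromeric histone, gave -0.07 without overlap.

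The mitotic genes that could not be tested are many. Ccnb1, Aurkb and Mki67 had no probe named for them in the annotation used here. The probes of 7 others (Ccna2, Ccnb2, Plk1, Bub1, Cenpe, Kif20a and Ube2c) read between -14.8 and 16.1 units and exceeded the background threshold on at most 1 array. Several of them encode proteins that dividing cells need, and a probe that is not above background gives no level of its gene. The mitotic result therefore rests on 15 of the 25 genes.

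Among the G1 regulators, the 3 cyclins D, which couple growth signals to the cycle, were all at or below 0. Ccnd1 read 11066, 10540.5 and 12350.0 units in wild type and 11131, 10345 and 10684 units in knockout. The genotypes overlapped, and the log2 difference was -0.08 ± 0.09 (standard error; limma adjusted p = 0.86). A second probe gave -0.09 and another, dimmer one 0.11. Ccnd2 read 6004, 5116 and 6356 units in wild type and 5935, 5545 and 4409 units in knockout, with overlap and the lowest value in knockout replicate 3 (-0.14 ± 0.12, adjusted p = 0.78). Without that replicate the Ccnd2 value was -0.02. Ccnd3 averaged 5014 ± 277 units (SD) over the wild types and 5022 ± 478 units over the knockouts, 3 samples each. Its other probes gave -0.04 and, on a dim one, 0.23 (adjusted p = 0.62).

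The CDK inhibitors, which hold cells in G1 or take them out of the cycle, did not pass either. Cdkn1a, an inhibitor that p53 induces, read 366, 420.3 and 363 units in wild type and 319, 307 and 371 units in knockout. The genotypes overlapped through knockout replicate 3, with a log2 difference of -0.17 ± 0.10 (standard error; limma adjusted p = 0.68). Its other 2 probes gave -0.13 and -0.02, so all 3 were below 0. Cdkn1b read 35.3, 48.0 and 33.0 units in wild type and 45.4, 41.4 and 42.9 units in knockout, fully overlapping (0.06 ± 0.09, adjusted p = 0.88).

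Several probes of a gene mostly pointed the same way. Of the 14 genes with more than 1 tested probe, all probes had 1 sign for 11 and disagreed for 3 (Cdc20, Ccnd1 and Ccnd3). The probes of a gene differed by a median of 0.14 on the log2 scale and by 0.27 at most, against differences of -0.20 to 0.29 between the genotypes.

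As groups, the S phase genes were centred on 0 and the mitotic genes slightly above it. The median log2 fold change was 0.025 for S phase (11 of 19 above 0), 0.062 for mitosis (11 of 15 above 0) and -0.075 for G1 control (1 of 5 above 0), against 0.0069 over all probes tested, of which 52.1% were above 0. Over all named genes, by the brightest probe of each, the median was -0.00054, with 49.8% above 0. The S phase median was 0.0020, 0.0040 and 0.0017 without wild-type replicate 3, knockout replicate 2 and knockout replicate 3, and the G1 median was -0.011 without wild-type replicate 3. Of 35 other replication genes, 0 passed and 25 were above 0, with a median of 0.070. Of 36 other mitotic genes, 0 passed and 29 were above 0, with a median of 0.090. By limma, 2 (5.71%) and 3 (8.33%) of these genes reached an unadjusted p under 0.05, against 8.51% of all named genes. In bulk samples, fewer cells of a type and less RNA per cell cannot be told apart.

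**Figure D3:**
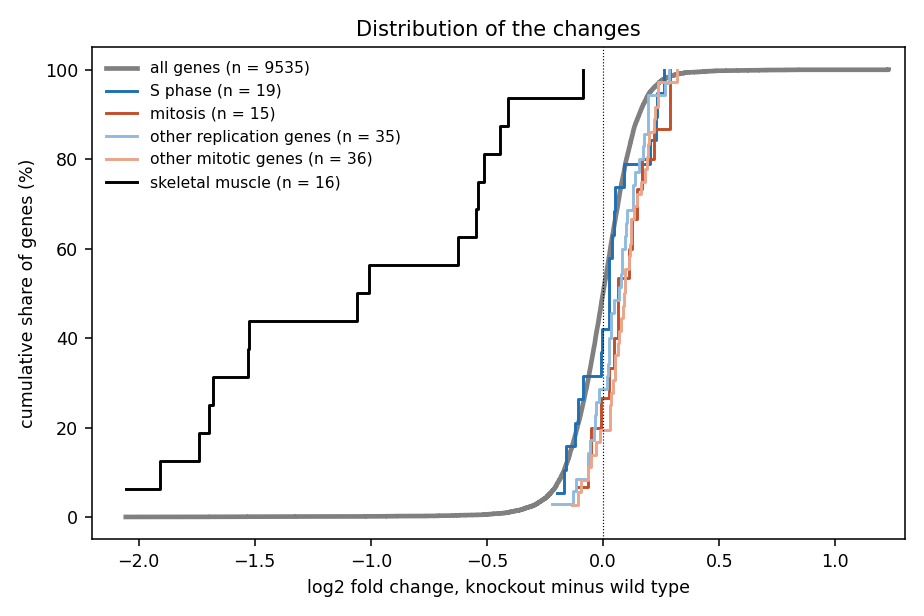
Cumulative share of genes (y axis, percent) against the log2 fold change (x axis, knockout minus wild type) for all 9535 named genes tested, the S phase and mitotic genes, the 35 other replication genes, the 36 other mitotic genes and 16 skeletal muscle genes. The cell cycle curves run within the steep part of the curve of all genes, and the muscle curve lies to the left with a median of -1.03.

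The list means differed between the knockout samples. The mean log2 level of the 15 mitotic genes relative to wild type was 0.01 in knockout replicate 1, 0.11 in replicate 2 and 0.14 in replicate 3, and the wild types lay at -0.01, 0.03 and -0.01. Knockout replicate 1 was thus within the wild-type range. For the 36 other mitotic genes the knockouts lay at 0.01, 0.08 and 0.18, and for the 35 other replication genes at -0.01, 0.08 and 0.11. The 19 S phase genes stayed between -0.01 and 0.04 in all 6 samples. Without knockout replicate 3 the median was 0.038 for the mitotic genes (0.039 without wild-type replicate 1), 0.057 for the other mitotic genes and 0.026 for the other replication genes. Without knockout replicate 1, which lay within the wild-type range of all 3 lists, those medians were 0.086, 0.12 and 0.093.

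By list means, erythroid, muscle and cartilage markers differed by genotype on the same arrays. The 16 erythroid genes tested of 20, markers of red cell precursors, lay at 0.23, 0.39 and 0.48 in knockout replicates 1, 2 and 3, with wild types from -0.12 to 0.09, and 2 of them rose (Car2 by 0.82 and Nfe2 by 0.63 on the log2 scale), while Klf1 gave 0.51 (adjusted p = 0.076). The 16 skeletal muscle genes tested of 20 lay at -0.68, -0.90 and -1.68, with wild types from -0.10 to 0.13, and 7 of them fell (Myh8, Acta1, Myl4, Mylpf, Tnnt1, Tnnc2 and Tnnc1, from -2.05 for Myl4 to -1.01 for Tnnt1). The 9 cartilage genes tested of 16 lay at -0.22, -0.25 and -0.63, with wild types from -0.13 to 0.23, and 1 of them, Matn4, fell by 1.58. Matn1 gave -0.46 and Col9a2 gave -0.56. For comparison, 5 rose and 21 fell among all 9535 named genes tested. All calls on these arrays were lost without wild-type replicate 3. The cartilage median of -0.30 was -0.11 without knockout replicate 3 and -0.13 without wild-type replicate 3. By their means, knockout replicate 3 was farthest from wild type and replicate 1 nearest in the mitotic, erythroid, muscle and cartilage lists. The same order held for the S phase, other replication, other mitotic and macrophage lists. It did not hold for the G1, regulator, p53 target, limb mesenchyme, ectoderm and endothelial lists. By the median over cartilage genes, knockout replicate 2 (-0.11) lay nearer than replicate 1 (-0.12). Both of these medians lay within the range of the wild-type medians, -0.14 to 0.24. Whether the shares of these cell types have a part in the mitotic values was not tested. Of the 13 limb mesenchyme, 11 ectoderm, 11 endothelial and 7 macrophage genes, 0 passed by limma. An unadjusted p under 0.05 was reached by 3 (23.1%), 0, 0 and 1 (14.3%) of them, against 8.51% of all named genes. Their medians were 0.080, -0.093, -0.019 and -0.095. The smallest p-values belonged to Tbx4 (-0.51), Prrx1 (0.28) and Lhx2 (0.25) in mesenchyme, Krt8 (0.18), Cdh1 (0.098) and Grhl3 (-0.10) in ectoderm, Flt1 (-0.19), Cdh5 (-0.14) and Tie1 (-0.13) in endothelium, and C1qc (-0.26), C1qb (-0.22) and Mrc1 (-0.23) in macrophages.

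**Figure D4:**
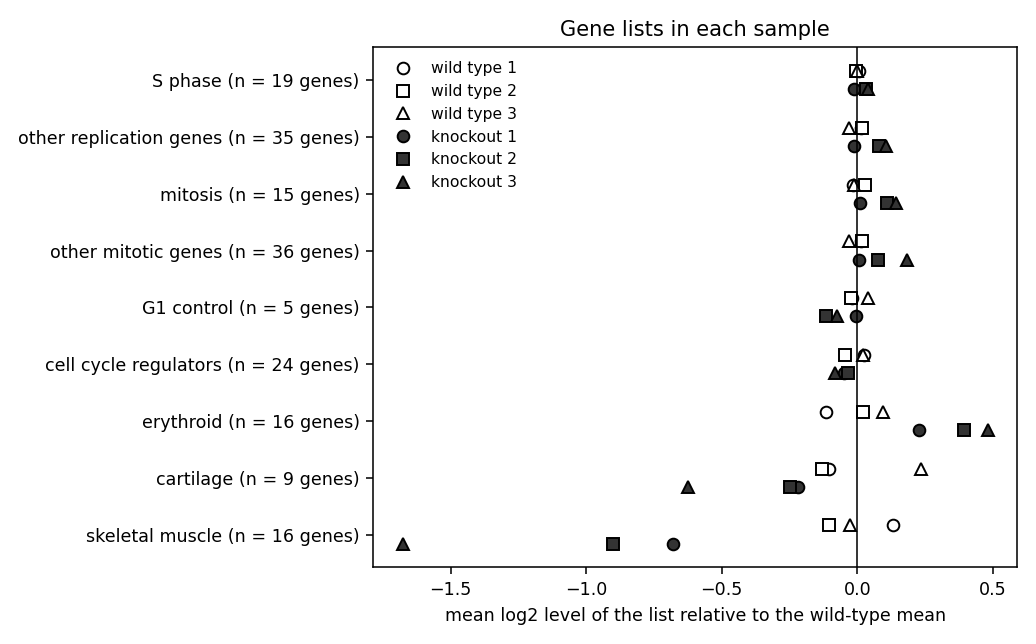
Mean log2 level of 9 gene lists in each of the 6 samples relative to the wild-type mean (x axis), wild type as open and knockout as filled symbols, with the symbol shape giving the replicate number. The S phase genes stay between -0.01 and 0.04, the mitotic genes reach 0.14 in knockout replicate 3, and the muscle genes lie at -1.68 in that sample.

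Among the other replication genes, Rpa2, a subunit of the single-strand binding complex, had the smallest p by the brightest probe of each gene. It read 1287, 1291 and 1202 units in wild type and 1425, 1554 and 1679.8 units in knockout, without overlap, and a dim second probe gave 0.25 (brighter probe: log2 difference 0.28 ± 0.09, limma adjusted p = 0.41). A dimmer probe of Mcm10, a replication factor that acts with the helicase, had a smaller p (0.35, adjusted p = 0.37, without overlap), while its brightest probe gave 0.14 (adjusted p = 0.72). Atad2, a bromodomain ATPase, gave 0.26 ± 0.09 (adjusted p = 0.43) and Dnmt1, the maintenance DNA methyltransferase, gave -0.22 ± 0.11 (adjusted p = 0.63). Among the other mitotic genes, Spc24, a subunit of the kinetochore's Ndc80 complex, gave 0.32 ± 0.13 (adjusted p = 0.57), while its second probe gave -0.06. A dimmer probe of Cenpm had a smaller p than Spc24 (0.31, limma adjusted p = 0.51, without overlap). The brightest Cenpm probe gave 0.22 with overlap, and another gave 0.30 without overlap. Kif15, a spindle kinesin, gave 0.22 ± 0.10, and Pttg1, which encodes securin, gave 0.23 ± 0.11.

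The regulators of both programs did not pass either. Of 24 tested, 0 rose, 0 fell and 9 were above 0 (37.5%), with a median of -0.012. Of all 9535 named genes tested, 5 rose, 21 fell and 49.8% were above 0. An unadjusted p under 0.05 was reached by 1 of the 24 regulators (4.17%), against 8.51% of all named genes. The median was -0.049, -0.028 and -0.0079 without wild-type replicates 1, 2 and 3 and -0.0064, -0.038 and -0.028 without knockout replicates 1, 2 and 3. The gene with an unadjusted p under 0.05 was E2f7, a repressor of E2F targets. It read 50.6, 50.7 and 48.5 units in wild type and 31.3, 31.9 and 37.6 units in knockout. The groups were well apart in intensity, and the log2 fold change of -0.21 ± 0.09 (standard error; limma adjusted p = 0.58) is shrunk by the offset. Cdkn1c, a CDK inhibitor of differentiating cells, read 45060.5, 40537 and 46774 units in wild type and 45753, 34248 and 30592 units in knockout. Knockout replicate 1 matched the wild types and the other two lay below them (-0.28 ± 0.13, adjusted p = 0.62). Cdk2, the partner of cyclin E, gave -0.22 ± 0.12 on its brightest probe and -0.05 to 0.02 on its other 3.

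Among the targets of p53 only Rprm passed. Of 16 such genes tested, a list that holds Cdkn1a, 1 fell and 0 rose, with 5 of the 16 above 0 (31.2%). Among all 9535 named genes tested, 5 rose, 21 fell and 49.8% were above 0. The call is a result about Rprm and not about the list. An unadjusted p under 0.05 (limma) was reached by 1 higher and 3 lower genes of the list, Rprm included. This was a share of 25%, against 8.51% of all named genes. The genotypes did not overlap for 5 genes of the list (31.2%), against 13.8% of all named genes. Rprm, which arrests cells in G2 when overexpressed, read 1683, 1304 and 1267 units in wild type and 711, 736 and 562 units in knockout. It fell in all 3 knockouts below all wild types, with a log2 difference of -1.003 ± 0.12 (standard error; limma adjusted p = 0.0064). The call was lost without wild-type replicate 3, as were all calls on these arrays. Pmaip1, a BH3-only protein of apoptosis, gave 0.53 ± 0.15 (adjusted p = 0.26) and Tnfrsf10b, a death receptor, gave -0.27 ± 0.11 (adjusted p = 0.54), without overlap in both.

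Promoter class and direction were set side by side for the tested genes with a window. Of the 11 mitotic genes with both a CCAAT box and a CHR, 8 were above 0, with a median of 0.062, and of the 3 without, 2 were above 0, with a median of 0.049. Of the 6 S phase genes with an E2F-type motif, 3 were above 0, with a median of 0.016, and of the 11 without, 7 were above 0, with a median of 0.025. These groups are too small for a comparison.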

How the data were processed

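Total RNA was measured on Illumina bead arrays, 1 per sample. The deposited values are linear intensities, of which 27.9% lie below 0, and how the authors corrected and normalized them is not given in the sources used here. A second table was not used, since none of its 12 value columns could be tied to 1 sample by name. Intensities were corrected with normexp (offset 50) in limma 3.58.1 under R 4.3.3 before taking log2. Probes above 14.3 units (1.64 times the root mean square of values below 0) on at least 3 of 6 arrays were tested with lmFit and eBayes on genotype alone, two-sided, with Benjamini-Hochberg adjustment over 13715 probes. Groups of 3 allow no exact permutation p under 0.1, so none was run. The fit was tested on simulated data.

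Symbols came from GEO's platform annotation, updated by Entrez identifier to GRCm38.p6: 23978 of 25697 probes have 1 symbol, 0 several and 1719 none. The probe with the highest mean stood for a gene. Values per sample are given for the 4 smallest p-values of each class and for Pcna, Top2a, Mcm2, Cdk1, Ccnd1 and Cdkn1a (Mki67 and Ccnb1 had no probe), and every gene that passed and the 3 smallest p-values of every other list are named. Per-sample values of Mcm7, Ccne2, Fen1 and Cdc20 were chosen after their values were seen. The genes, lists and tests were chosen with earlier results of these data known. The lists share Ccnd2, Cdkn1a and Gtse1. Figures were drawn with matplotlib 3.10.9.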

Additional observations from a re-analysis of the deposited data

How the results depend on the processing

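In each of the 16 alternatives (the background step, an offset of 16, renormalization, the filter, the variance model, array weights, a replicate block, averaging the probes of a gene, and leaving out each array), 0 of the 39 cell cycle genes passed, with a smallest adjusted p of 0.18 (Kif11, without knockout replicate 1). The count over all probes was 30, and 8 with an offset of 16. Leaving out 1 array it ran from 0 (without wild-type replicate 3) to 91 (without knockout replicate 1), and for p53 targets from 0 to 2. The median ran from 0.0017 to 0.033 for S phase, from 0.038 to 0.086 for mitosis and from -0.11 to -0.011 for G1 control, where the mean over probes gave -0.022. S phase genes with an unadjusted p under 0.05 numbered 0 to 3 with 1 array left out and 1 with an offset of 16 or no normexp. The cause was not tested.

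Genes near 0 changed sign. With array weights Mcm5 gave 0.026, Tyms -0.022, Ccne1 -0.0101, Rfc4 -0.0301, Uhrf1 0.015, Prc1 -0.0098 and Ccnd3 0.035, and with the mean over probes Ccnd3 gave 0.065. With 1 array left out Mcm2 ran from -0.013 to 0.077, Mcm3 from -0.056 to 0.15, Mcm5 from -0.045 to 0.015, Tyms from -0.014 to 0.097, Cdc6 from -0.048 to 0.14, Ccne1 from -0.021 to 0.067, Rfc4 from -0.056 to 0.15, Uhrf1 from -0.063 to 0.086, Mad2l1 from -0.11 to 0.055, Kif23 from -0.017 to 0.13, Prc1 from -0.0061 to 0.075, Cdca3 from -0.0081 to 0.12 and Ccnd3 from -0.044 to 0.080.

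The genotypes share replicate numbers, but the deviations of same-numbered arrays correlated at 0.23, 0.17 and -0.074, so the numbers were not taken as pairs. With the replicate block 84 probes, 2 p53 targets and 0 of the 39 cell cycle genes passed. With 1 array left out, other values that moved by over 1.5 times without changing sign were Pcna (0.045 to 0.17), Cdt1 (-0.13 to -0.047), Chaf1b (-0.14 to -0.070), Fen1 (-0.16 to -0.072), Aurka (-0.10 to -0.023), Birc5 (0.018 to 0.073), Cdca8 (0.041 to 0.21), Ccnd1 (-0.12 to -0.011), Cdkn1a (-0.24 to -0.11) and Cdkn1b (0.023 to 0.12), beside those given with their results. Dim probes limit the result for Pcna and Cdkn1b and for the 7 untested mitotic genes.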
